A study of Mus musculus with 80 samples.

Results

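The glutamate and GABA receptor genes are the genes that encode the subunits of the ionotropic glutamate receptors, the metabotropic glutamate receptors, the GABA-A receptor subunits alpha, beta, gamma, and delta, and the GABA-B receptors. They were chosen by symbol alone, as the rows whose gene symbol begins with Gria, Grik, Grin followed by 1, 2, or 3, Grm followed by a digit, Gabra, Gabrb, Gabrg, Gabrd, or Gabbr, and no measured value entered the choice. There were 38 such genes among the 15919 genes of the sort comparison, and the same 38 among the 16000 genes of the preparation comparison. Of the 39 genes looked up by name, Grm6 had no row in either table and is not analysed here.

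All libraries came from brains of tamoxifen-treated Cx3cr1-NuTRAP mice of both sexes, labelled Cx3cr1(Jung)-cre/Ert2+;NuTRAP+, in which Cre driven by the Cx3cr1 gene switches on eGFP-tagged ribosomes in microglia and also in border-associated macrophages. Every group had received the same tamoxifen course (100 mg/kg, daily, intraperitoneal, from about 3 months of age), so there is no group without tamoxifen and none without Cre among the samples analysed here. Each sample gave an Input library, which is the RNA of the homogenate before the pull-down. Each also gave a TRAP library, which is the RNA pulled down with an antibody to GFP, meant to recover the tagged ribosomes. Tissue is brain homogenised directly, and Cell is a suspension made by papain digestion with mechanical dissociation at 37 °C and left unsorted. Cell with inhibitors is the same suspension made in the presence of actinomycin D, triptolide, and anisomycin, which block transcription and translation. Dounce is a suspension made mechanically at 4 °C, without enzyme. From cell suspensions, microglia were isolated with CD11b beads (autoMACS), in a cartridge cell sorter (Tyto), in a conventional cytometer (FACSAria), or with beads and then the cartridge sorter (autoMACS to Tyto). The Tyto and FACSAria sorts gated on eGFP and surface markers together, whereas autoMACS selected on CD11b alone. The 48 libraries of the sort comparison came from 14 mice and the 32 libraries of the preparation comparison from 12, with 4 mice per group except 3 in autoMACS to Tyto and 5 in Tyto. Tissue and Cell of the sort comparison came from the same 4 mice, as did Cell and Cell with inhibitors of the preparation comparison, and some mice gave cells for more than 1 sort. Tissue of the preparation comparison came from the same 4 mice as Tissue of the sort comparison, so the comparisons with Tissue in the 2 experiments are not independent of each other.

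Glutamate is the main excitatory transmitter of the brain and GABA the main inhibitory transmitter. AMPA, kainate, and NMDA receptors are cation channels built from several subunits, GABA-A receptors are chloride channels of the Cys-loop family, and metabotropic glutamate and GABA-B receptors act through G proteins. Most of these genes are known as neuronal genes. Some are also known for their expression in glia, such as Grm3 and Gabrg1 in astrocytes.

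Libraries of the sort comparison held 7129464 to 20168116 counts and those of the preparation comparison 2471448 to 14650287, the fewest being those of Dounce-TRAP, at 2471448 to 4724538. Levels are printed in CPM (counts relative to library size, on each table's TMM scale), in ascending order over libraries, so that the order does not name the mouse. The labelled preparations were checked against marker lists of 8 genes each. Summed microglial markers were 248 to 383 CPM in Tissue-Input, 4335 to 5661 in Cell-Input, and 32465 to 34557 in Cell-TRAP of the sort comparison, and summed pan-neuronal markers were 6127 to 6295, 452 to 1001, and 107 to 309 CPM in the same groups. A single library, autoMACS-Input replicate 3, stood apart from its group, with the fewest counts of the sort comparison (7129464), summed microglial markers of 22413 CPM against 33760 to 36504 in the 3 other autoMACS-Input libraries, and summed pan-neuronal markers of 40 CPM against 12.7 to 18.2. For the summed receptor CPM and Grin3b, results are given with and without it. Other results of sorted Input include it, unless mouse 72, from which it came, was left out.

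Receptor genes in tissue were led by the obligatory NMDA subunit and by the ligand-binding GABA-B subunit. Levels were compared between genes per kilobase of exon, with exon lengths from GENCODE vM21. The gene models behind the deposited counts are not given in the sources used here, so such ranks are approximate. The mean level in Tissue-Input of the sort comparison was 100.1 CPM per kb for Grin1, 91.6 for Gabbr1, and 56 for the kainate subunit Grik5. It was 52.9 for the AMPA subunit Gria1, 51.8 for the GABA-A subunit Gabrb2, and 36.3 for Gabrd, the subunit of GABA-A receptors outside synapses. At the low end stood Gabrb1 at 1.28, Grin2a at 0.211, and Gabrg3 at 0.0607 CPM per kb. Summed over the 38 genes, the level was 3877 ± 182 CPM in Tissue-Input (SD, n = 4), 1491 ± 103 in Cell-Input, 3629 ± 352 in Tissue-TRAP, and 316 ± 46.7 in Cell-TRAP. In the sorted groups the sums lay between 59.1 and 166 CPM in single Input libraries and between 36.3 and 69.3 CPM in single TRAP libraries. The highest sorted Input sum was that of autoMACS-Input replicate 3, and without it the highest was 110.3 CPM.

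**Figure D1:**
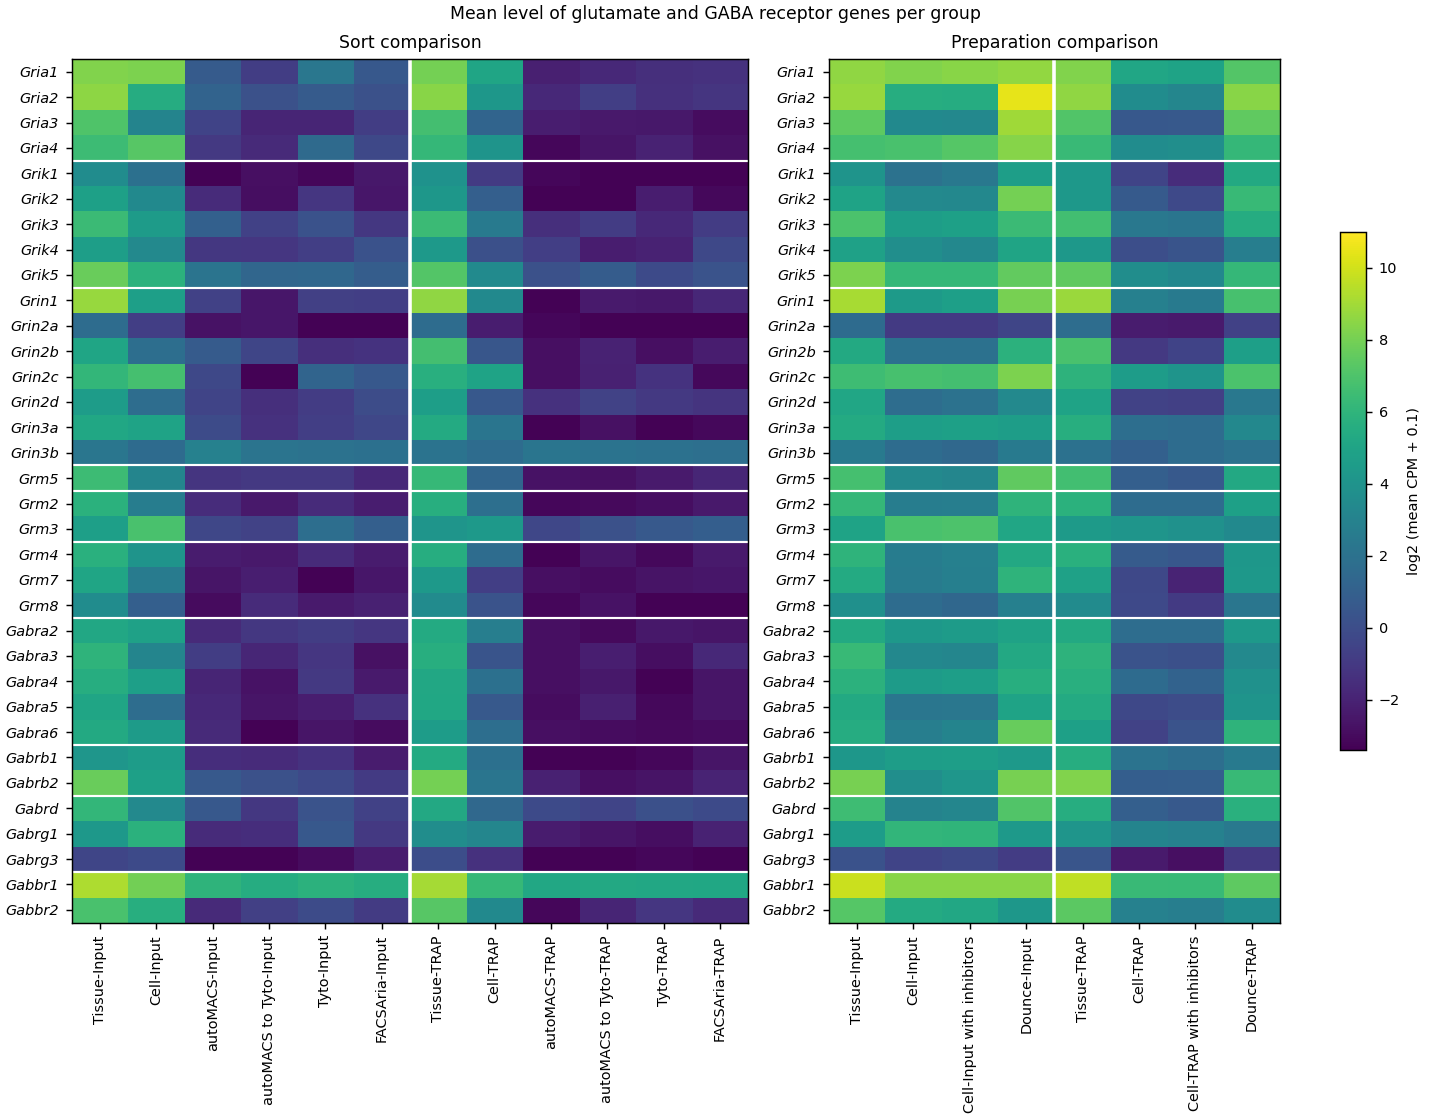
Heatmap of receptor genes (rows, grouped by receptor family) in each group of both experiments (columns), coloured by log2 of the mean CPM plus 0.1. Tissue groups are bright in nearly all rows, Cell-TRAP is darker than Cell-Input, and in the sorted groups Gabbr1 is the brightest row.

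In Input, most receptor RNAs were lower in the digested cell suspension than in tissue, and 2 were higher. In Cell-Input against Tissue-Input of the sort comparison, 26 of 38 genes fell, 2 rose, and 10 were not called, where a call needed an FDR under 0.1 (edgeR's quasi-likelihood test with Benjamini-Hochberg adjustment) and a fold change above 2. Over all genes tested, 46% were called in either direction and 17.5% were called lower. The median log2 fold change of the receptor genes was -1.79, and that of all genes was 0.17. In the preparation comparison 29 fell and 2 rose, where 44.7% of all genes were called (19.1% lower), with medians of -2.65 for the receptor genes and 0.05 for all genes. In bulk RNA, fewer cells of a type and less RNA per cell cannot be told apart. The summed pan-neuronal markers fell over the same comparison in the preparation experiment, with 8076 to 8294 CPM in Tissue-Input and 434 to 801 CPM in Cell-Input, and their part in the receptor result was not tested.

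The gene that rose most was Grm3, a Gi-coupled metabotropic receptor of group II. Its level was 22.3, 24.2, 24.7 and 33.2 CPM in the Tissue-Input libraries and 97.0, 114, 118 and 142 CPM in the Cell-Input libraries of the sort comparison (log2 fold change 2.27 ± 0.24 (SE), adjusted p = 1.67e-08). All Cell-Input libraries lay above all Tissue-Input libraries. In the preparation comparison Grm3 was at 23.9, 29.1, 34.5 and 38 CPM in Tissue-Input and 89.5, 99.5, 127 and 145 CPM in Cell-Input (log2 fold change 1.74 ± 0.15 (SE), adjusted p = 3.65e-09), again without overlap. Gabrg1, a GABA-A gamma subunit, was at 17.4, 19.2, 19.2 and 22.7 CPM in Tissue-Input and 38.4, 58.1, 62.5 and 65.7 CPM in Cell-Input of the sort comparison (log2 fold change 1.62 ± 0.26 (SE), adjusted p = 1.04e-05). The preparation comparison gave a log2 fold change of 1.40 ± 0.25 for Gabrg1 (adjusted p = 5.86e-05). Both genes are on the study's list of astrocyte markers. A separate list of 8 astrocyte genes summed to 1926 to 2197 CPM in Tissue-Input and 4694 to 5973 CPM in Cell-Input. Markers of oligodendrocyte progenitors were at 150.5 to 163 CPM in Tissue-Input and 310.2 to 364 CPM in Cell-Input. The part of these cells in the levels of Grm3 and Gabrg1 was not tested.

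Among the genes that fell, Grin1 fell furthest in both experiments. Grin1, the subunit that every NMDA receptor contains, was at 422, 429, 442 and 456 CPM in Tissue-Input and 18.0, 22.4, 26.7 and 38.5 CPM in Cell-Input of the sort comparison (log2 fold change -3.96 ± 0.24 (SE), adjusted p = 1.07e-12), and its log2 fold change was -4.85 ± 0.22 in the preparation comparison (adjusted p = 8.59e-13). The AMPA subunit Gria3 fell from 119, 127, 133 and 144 CPM to 6.25, 6.65, 8.31 and 12.8 CPM (log2 fold change -3.85 ± 0.29 (SE), adjusted p = 5.57e-11). Neither gene had a Cell-Input library within the Tissue-Input range. An antisense RNA on the opposite strand, Grin1os, shares 1307 bases (29.9%) of the Grin1 exons in the basic annotation of GENCODE vM21, and how reads over both were assigned is not given in the sources used here. Gabra5, a GABA-A alpha subunit known from hippocampus, had a log2 fold change of -3.24 ± 0.37 in the sort comparison, and Gabrb2, the most abundant beta subunit in tissue, one of -4.48 ± 0.31 in the preparation comparison.

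The calls are given next by receptor family, with no test between families. All 5 kainate subunits fell in both experiments, with median log2 fold changes of -1.58 in the sort comparison and -2.12 in the preparation comparison. The call of Grik2 in the sort comparison (-1.21 ± 0.42) was lost under DESeq2's Wald test (adjusted p = 0.21) and without mouse 948 or 949 (-1.07 each, adjusted p = 0.101 and 0.109 by edgeR). The group I metabotropic receptor Grm5 (coupled to Gq), all 3 measured members of group III (Grm4, Grm7, and Grm8, coupled to Gi), and both GABA-B subunits fell in each experiment as well. Of the 7 NMDA subunits 4 fell in each experiment, and Grin2c, Grin3a, and Grin3b were not called. In the preparation comparison Grin3b was called, as lower, with DESeq2 size factors, under DESeq2's Wald test, and without mouse 156, 946, 948, or 949. Of the 4 AMPA subunits 2 fell in each experiment (Gria2 and Gria3), while Gria1 and Gria4 were not called. The log2 fold change of Gria1 was 0.01 ± 0.30 in the sort comparison (95% interval -0.62 to 0.63) and -0.51 ± 0.19 in the preparation comparison, and that of Gria4 was 0.89 ± 0.31 and -0.03 ± 0.21. The study's astrocyte list also holds Grin2c (0.68 ± 0.29 and 0.13 ± 0.17) and Gabrb1 (0.53 ± 0.29 and 0.28 ± 0.21), and its neuronal list holds Gria1, so the 2 lists are not separate evidence on these genes. Gabrg3 was sparse, with 58 and 63 counts in all over the Tissue-Input and Cell-Input libraries of the sort comparison.

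Many GABA-A subunit genes lie in clusters, and neighbours did not always share a call. In mouse build mm10, Gabrg1, Gabra2, Gabra4, and Gabrb1 lie within 1386 kb at chr5:70751047-72137244, where the log2 fold changes in Cell-Input against Tissue-Input of the sort comparison were 1.62 ± 0.26, -0.28 ± 0.30, -0.71 ± 0.22, and 0.53 ± 0.29, of which only that of Gabrg1 was called. Among the other alpha, beta, and gamma subunits, Gabra5 and Gabrb2 fell (-3.24 and -2.85), while Gabra6, the alpha subunit of cerebellar granule cells, was at -0.80 ± 0.34 and Gabrg3 at 0.32 ± 0.51, and neither was called. Gabrd on chromosome 4 and Gabra3 on chromosome X both fell (-2.67 and -2.78).

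**Figure D2:**
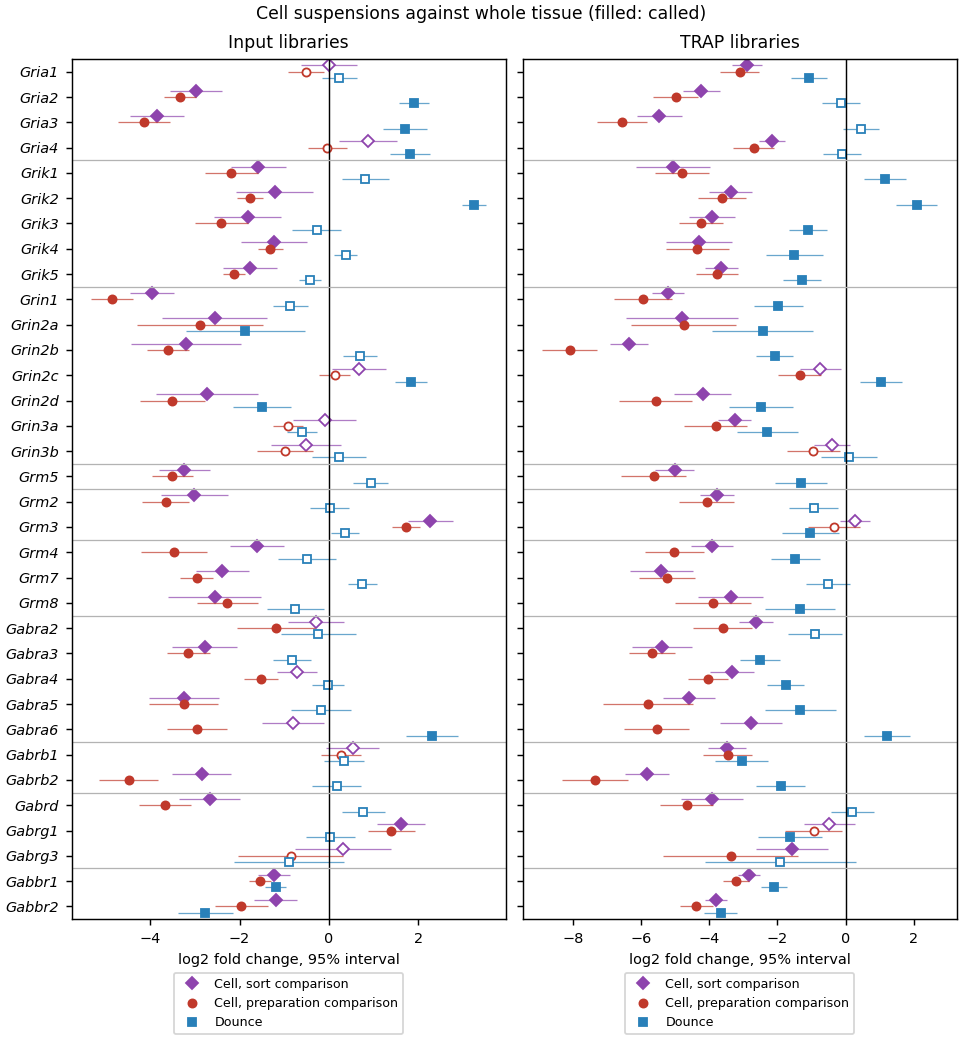
Log2 fold changes against Tissue, with 95% intervals, of receptor genes in Cell of the sort comparison, Cell of the preparation comparison, and Dounce, for Input and for TRAP (filled points were called). Most Cell points lie to the left of 0, those of Grm3 and Gabrg1 lie to the right in Input, and the Dounce points lie on both sides.

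The promoters of the receptor genes were searched for letters known from binding sites. The window ran from 250 bases before to 50 bases after the start site in RefSeq (GRCm38.p6), both strands were read, and 32 of 38 genes had an entry. The letters TTCAGCACC and GGACAGC are the left and right parts of RE1, the element bound by REST, a repressor of neuronal genes outside neurons. The left part was present in 1 of 32 receptor promoters and in 0.371% of all 32851 promoters, the right part in 2 of 32 (Gria2 and Grm2) and in 6.56%. Grm2, the other group II metabotropic receptor, held both parts on 1 strand with 7 bases between them, at chr9:106656329-106656351 on the minus strand, starting 242 bases upstream of the start site. The stretch is shown because it is the only receptor promoter with both parts, which are in capitals.
Grm2: TTCAGCACCacactgtGGACAGC
The log2 fold change of Grm2 in Cell-Input against Tissue-Input was -3.01 ± 0.36 in the sort comparison and -3.65 ± 0.25 in the preparation comparison, beside medians of all receptor genes of -1.79 and -2.65. Whether REST binds this stretch, with 7 bases between the parts, was not tested, nor was the part of these letters in the level of Grm2. GAGGAAGT, the core of sites of the myeloid factor PU.1, was in 0 of 32 receptor promoters and in 3.2% of all promoters.

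In the pulled-down RNA, nearly all receptor genes fell between tissue and cell suspension. In Cell-TRAP against Tissue-TRAP of the sort comparison, 34 of 38 genes fell and none rose, where 54.3% of all genes were called (29.3% lower), and the median log2 fold change was -3.85 beside -0.01 for all genes. In the preparation comparison 35 fell and none rose (53.2% of all genes called, 30.8% lower), with a median of -4.52 beside -0.13. In Cell-TRAP, 32 genes of the sort comparison and 29 of the preparation comparison had more than 5 counts in every library. The others passed the filter through other groups and could hardly fail to be lower. Grin2b, the NMDA subunit best known from forebrain and early development, fell furthest. It was at 79.5, 95.9, 104 and 143 CPM in Tissue-TRAP and 1.01, 1.06, 1.32 and 1.77 CPM in Cell-TRAP of the sort comparison (log2 fold change -6.36 ± 0.27 (SE), adjusted p = 6.61e-17). The GABA-A beta subunit Gabrb2 followed, at -5.83 ± 0.31 in the sort comparison and -7.35 ± 0.46 in the preparation comparison. Of the genes not called, Grm3 was at 13.5, 14.5, 19.5 and 22.4 CPM in Tissue-TRAP and 18.2, 19.7, 21.1 and 25.1 CPM in Cell-TRAP, and the groups overlapped (0.28 ± 0.21, adjusted p = 0.224). Gabrg1, Grin2c, and Grin3b were the others not called in the sort comparison (-0.47 ± 0.37, -0.74 ± 0.29, and -0.40 ± 0.26). Summed pan-neuronal markers were 5257 to 5809 CPM in Tissue-TRAP and 107 to 309 CPM in Cell-TRAP, and their part in these values was not tested.

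In microglia isolated from the suspension, 37 of 38 receptor genes were lower again than in the unsorted suspension. All 38 passed the filter on low counts (more than 5 counts in every library of at least 1 group) through the Tissue groups, whereas in single sorted groups only 3 to 8 of them had more than 5 counts in every library, so genes that passed could hardly fail to differ and the counts below describe the range of the fall. In sorted Input, taken as the mean of the 4 sorts, against Cell-Input, 37 genes fell, none rose, and only Grin3b was not called, where 51.8% of all genes were called (34.7% lower), with a median log2 fold change of -5.89 beside -0.09 for all genes. Sorted TRAP against Cell-TRAP gave the same numbers, 37 and 0, where 24.4% of all genes were called (23.6% lower), with a median of -5.99 beside -0.05. In 6 genes of sorted Input and 12 genes of sorted TRAP at least 1 sort held no count at all, so that fitted folds of these genes depend on the model's prior, and folds from pooled counts with 95% counting intervals are given instead. These intervals cover counting error only. By pooled counts, the genes of sorted Input ranged from Gabbr1 at 4.51-fold lower (95% counting interval 4.4 to 4.62) to Gabra6 at 253-fold lower (95% counting interval 153 to 454), with Gria1 at 119.9-fold lower (95% counting interval 109 to 132). In sorted TRAP they ranged from Gabbr1 at 2.00-fold lower (95% counting interval 1.93 to 2.07) to Grin3a, which had 3 counts in all sorted TRAP libraries, at 367-fold lower (95% counting interval 124 to 1790.1).

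Gabbr1, the GABA-B subunit that binds GABA, was the most abundant receptor RNA in every sorted group. Its level was 597, 599, 612 and 613 CPM in Tissue-Input and 202, 209, 271 and 287 CPM in Cell-Input. Among sorted Input libraries it was 44.2, 49.5, 62.1 and 95.8 CPM in autoMACS, 44.1, 46 and 46.2 CPM in autoMACS to Tyto, 44.3, 51.7, 57.3, 57.4 and 81.3 CPM in Tyto, and 45, 46.8, 46.8 and 51.3 CPM in FACSAria. The highest of these was autoMACS-Input replicate 3. All sorted libraries lay below all Cell-Input libraries, and the log2 fold change was -2.43 ± 0.12 (adjusted p = 5.27e-15). In TRAP it was 65.2, 72.3, 79.4 and 83.2 CPM in Cell-TRAP, 30.2, 30.5, 32.5 and 54.6 in autoMACS, 34.3, 36.9 and 45.6 in autoMACS to Tyto, 33.6, 33.8, 37, 37.6 and 47.9 in Tyto, and 31.0, 32.6, 37 and 42 in FACSAria (log2 fold change -1.03 ± 0.11 (SE), adjusted p = 2.69e-08). That change lay at the fold threshold, and the call was lost with only the compared groups in the fit (-0.97) and without mouse 946 or 949 (-0.98 each). Gabbr1 alone held 53.1% to 75% of the summed receptor CPM of the Tyto-Input libraries and 76.6% to 81.6% of that of the Tyto-TRAP libraries. Its partner Gabbr2, without which the GABA-B receptor does not reach the cell surface, was 86.4-fold lower (95% counting interval 70.8 to 106) in sorted Input than in Cell-Input, and was at 0.0856 to 1.34 CPM in Tyto-Input and 0.114 to 0.683 CPM in Tyto-TRAP.

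Grin3b, an NMDA subunit that lowers calcium entry, was the only receptor gene not called in sorted Input or sorted TRAP. It was at 4.34, 4.35, 4.87 and 4.93 CPM in Tissue-Input, 2.46, 2.88, 2.94 and 3.80 in Cell-Input, 2.01, 4.70 and 6.16 in the Input of autoMACS to Tyto, 2.38, 2.62, 4.62, 4.77 and 5.30 in that of Tyto, and 3.21, 3.75, 3.78 and 4.17 in that of FACSAria. All Cell-Input libraries lay below all Tissue-Input libraries. In autoMACS-Input it was at 3.56, 4.11, 5.87 and 17.1 CPM, and the highest value was that of replicate 3. Of all genes, 51.6% were called in autoMACS-Input against Cell-Input. The log2 fold change of Grin3b was 1.01 ± 0.38 (adjusted p = 0.0209), and without replicate 3 it was 0.33 (adjusted p = 0.336), a setting chosen after seeing the data. For the mean of the 4 sorts it was 0.38 ± 0.31 in Input (95% interval -0.26 to 1.02) and 0.30 ± 0.21 in TRAP (95% interval -0.14 to 0.74). Exons of Grin3b share 73 bases (2.2% of its exons) with a protein-coding gene on the opposite strand in the basic annotation of GENCODE vM21, and 1059 bases (32.1%) over all annotated transcripts. That gene is not analysed here. The libraries were directional and aligned by strand, and how reads over shared exons were assigned is again not given.

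**Figure D3:**
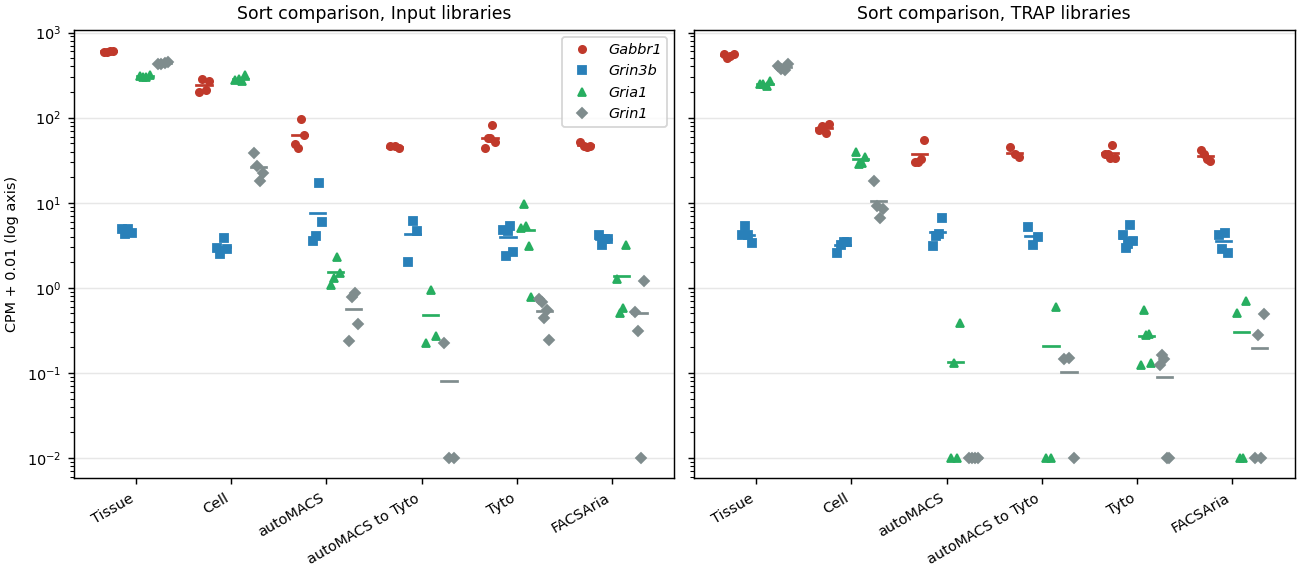
CPM plus 0.01 on a log axis of Gabbr1, Grin3b, Gria1, and Grin1 in each library of the sort comparison (points, with bars at the group means), for Input and TRAP. Gabbr1 steps down but stays above 30 CPM in all sorted libraries, and Gria1 and Grin1 fall by orders of magnitude. Grin3b is lower in Cell-Input than in Tissue-Input and shows no clear fall on sorting, with 1 autoMACS-Input library at 17.1 CPM.

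A few receptor genes differed between the 4 sorts. For autoMACS the markers selected on differed as well as the instrument, and these cannot be told apart. An F test across the 4 sorted Input groups called 5 of 38 genes, where 7.42% of all genes were called, and the mean of each was highest in Tyto-Input. Grm3 was at 0.145, 0.245, 0.999 and 1.36 CPM in autoMACS, 0.261, 0.424 and 1.03 in autoMACS to Tyto, 2.21, 2.70, 3.08, 3.12 and 5.72 in Tyto, and 0.884, 1.88, 2.29 and 2.41 in FACSAria (adjusted p = 0.00244, edgeR F test). The Tyto and autoMACS libraries did not overlap. Gria1 was at 0.771, 3.09, 5.04, 5.31 and 9.63 CPM in Tyto-Input and at 0.212 to 0.941 CPM in autoMACS to Tyto-Input (adjusted p = 0.0068), and Gria4 at 0.386, 2.05, 2.21, 3.05 and 6.67 and 0.106 to 0.261 CPM (adjusted p = 0.00609). For both AMPA genes the lowest Tyto-Input library lay within the range of autoMACS or FACSAria. Grin2c and Gabrg1 were the others called, and Grin2c had no count in the 3 autoMACS to Tyto-Input libraries. Of other cells, summed astrocyte markers were 182 to 335 CPM in Tyto-Input, 160.3 to 249.8 in autoMACS, 165 to 238 in autoMACS to Tyto, and 167 to 219.9 in FACSAria, and summed progenitor markers were 5.01 to 19.8 CPM with Tyto, 3.78 to 5.82 with autoMACS, 1.03 to 4.57 with autoMACS to Tyto, and 2.41 to 10.4 with FACSAria. The ranges overlapped except for the progenitor markers of Tyto and autoMACS to Tyto, and their part was not tested. Each level of Gria1, Gria4, and Grin2c rests on few counts (15, 6, and 0 in all of autoMACS to Tyto-Input). Across the sorted TRAP groups, 4 genes were called (4.17% of all genes), namely Gabbr2 (adjusted p = 0.00505), Grm3 (adjusted p = 0.0144), Grik4 (adjusted p = 0.0358), and Grik2 (adjusted p = 0.0362). Of these only Grm3 had enough counts in the sorted groups themselves, and the others passed the filter through Tissue or Cell groups, as did Gria4 and Gabrg1 in sorted Input. Gabbr2 was lowest in autoMACS-TRAP, with 1 count in 4 libraries, and Grik2 had 8 counts in Tyto-TRAP, 1 in FACSAria-TRAP, and none in the other two.

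Per kilobase of exon, Grin3b stood second to Gabbr1 in each sorted group, by the group means. The third place went to Grik5 in autoMACS-Input, autoMACS to Tyto-Input, and autoMACS to Tyto-TRAP, to Grm3 in Tyto-Input, FACSAria-Input, and FACSAria-TRAP, and to Gabrd in autoMACS-TRAP and Tyto-TRAP. Grik5, a kainate subunit that needs a partner subunit to form a channel, was at 51.8, 57.2, 60.3 and 61.3 CPM in Cell-Input and 1.41, 2.12, 3.18 and 10.9 CPM in autoMACS-Input, where the highest value was again replicate 3, and at 0.750, 1.2, 1.99 and 2.78 CPM in FACSAria-Input. The log2 fold change for the mean of the sorts was -4.75 ± 0.23 (adjusted p = 3.38e-15). Grm3 was at 0.540, 0.600, 0.721 and 0.869 CPM in autoMACS-TRAP and 1.23, 1.53, 1.68 and 2.64 CPM in FACSAria-TRAP, against 18.2 to 25.1 CPM in Cell-TRAP.

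Comparing TRAP with Input shows which receptor RNAs the pull-down kept. From tissue the pull-down changed few of them. Summed pan-neuronal markers stayed high, at 6127 to 6295 CPM in Tissue-Input and 5257 to 5809 in Tissue-TRAP of the sort comparison. Summed microglial markers were 248 to 383 and 5173 to 6576 CPM there, beside 32465 to 34557 in Cell-TRAP. Tissue-TRAP thus still held much neuronal RNA, and the share of its receptor RNA that came from tagged ribosomes was not tested. In Tissue-TRAP against Tissue-Input 2 of 38 genes rose and none fell in the sort comparison, where 11.1% of all genes were called (9.23% higher), and the same was found in the preparation comparison (10.5%, 8.21% higher), on libraries of the same mice. Grin2b was at 30, 32.2, 33.2 and 37.1 CPM in Tissue-Input and 79.5, 95.9, 104 and 143 CPM in Tissue-TRAP of the sort comparison (log2 fold change 1.67 ± 0.37 (SE), adjusted p = 3.12e-04), and its log2 fold change was 1.48 ± 0.23 in the preparation comparison. Gabrb1, a beta subunit, was at 15.9, 16.8, 18.0 and 19.6 and 37.3, 39.7, 40.9 and 49.3 CPM (log2 fold change 1.25 ± 0.28 (SE), adjusted p = 4.4e-04), with 1.36 ± 0.27 in the preparation comparison. For neither gene did the groups overlap, although DESeq2 did not call Grin2b in the sort comparison (adjusted p = 0.131).

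From the cell suspension the pull-down lowered nearly all of them. In Cell-TRAP against Cell-Input 35 of 38 genes fell in the sort comparison, where 47.6% of all genes were called (30.9% lower), with a median of -2.08 beside -0.07 for all genes, and 37 fell in the preparation comparison (47.3% of all genes called, 36.7% lower). The furthest in the sort comparison were Grm7 (-3.60 ± 0.42), a presynaptic group III receptor, the kainate subunit Grik4 (-3.35 ± 0.47), and Gria4 (-3.19 ± 0.29). In the preparation comparison they were Grik4 (-3.81 ± 0.30), Gabra6 (-3.54 ± 0.50), and Gria4 (-3.26 ± 0.27). In Cell-TRAP, 32 genes of the sort comparison and 29 of the preparation comparison had more than 5 counts in every library. The others, which include Grm7 and Grik4 of the sort comparison and Grik4 and Gabra6 of the preparation comparison, passed the filter through other groups. The counts of genes that fell thus describe the range of the fall. Grik4 was at 9.70, 10.3, 10.4 and 10.5 CPM in Cell-Input and 0.356, 0.368, 0.822 and 2.37 CPM in Cell-TRAP, and Gria4 at 133, 148, 157 and 164 and 13.7, 14.3, 14.9 and 23.2 CPM, in each case without overlap. Grin3b, Grm2, and Grm8 were not called in the sort comparison (0.07 ± 0.34, -0.86 ± 0.32, and -0.79 ± 0.51).

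The difference between Cell and Tissue in the effect of the pull-down was tested in the sort comparison. Here too, the genes with few counts in Cell-TRAP, Grik1 among them, passed the filter through other groups. The interaction term called 34 of 38 genes, all with TRAP lower relative to Input in Cell than in Tissue, where 35.3% of all genes were called (29.5% lower). The largest were Gabrb1 (log2 fold change -3.93 ± 0.41 (SE), adjusted p = 6.26e-10), the kainate subunit Grik1 (log2 fold change -3.41 ± 0.56 (SE), adjusted p = 7.86e-06), and Grin2b (log2 fold change -3.08 ± 0.61 (SE), adjusted p = 4.72e-05). For Grik1 the levels were 10.6, 11.9, 12.5 and 12.9 CPM in Tissue-Input, 13.9, 15.6, 15.7 and 15.8 in Tissue-TRAP, 2.98, 3.76, 3.85 and 4.39 in Cell-Input, and 0, 0.294, 0.576 and 0.889 in Cell-TRAP. After sorting, TRAP against Input called 24 genes lower and none higher (18.9% of all genes called, 18.8% lower). With only the sorted groups in the fit, however, 10 receptor genes passed the filter and 5 were called, namely Gabrb2, Gria1, Gria2, Grik3, and Grik5. Of these, only Grik5 had more than 5 counts in every library of a sorted TRAP group. The others passed through sorted Input groups and could hardly fail to be lower in TRAP. Without mouse 72, which gave autoMACS-Input replicate 3, the larger fit no longer called Grik2, Grik5, and Grm2. By pooled counts Gria1 was 11.6-fold lower (95% counting interval 8.61 to 15.8) in sorted TRAP than in sorted Input, Gria2, the subunit that makes AMPA receptors impermeable to calcium, 4.84-fold lower (95% counting interval 3.68 to 6.43), and Gabbr1 1.43-fold lower (95% counting interval 1.39 to 1.47). The largest fitted change was that of Grin3a, which had 3 counts in all sorted TRAP libraries, against 102 in sorted Input.

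**Figure D4:**
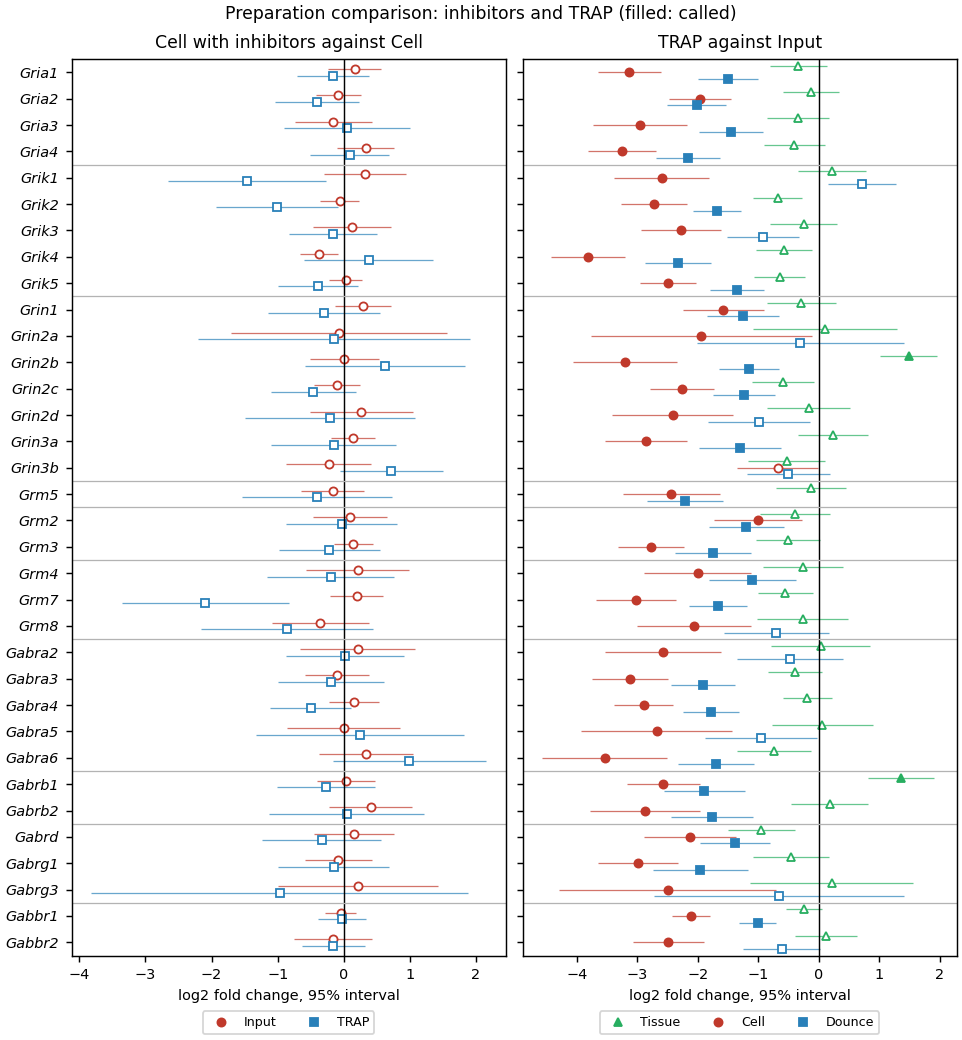
Log2 fold changes with 95% intervals of receptor genes in the preparation comparison, for Cell with inhibitors against Cell in Input and TRAP (left) and for TRAP against Input in Tissue, Cell, and Dounce (right), with filled points for called genes. The inhibitor points lie around 0 with none filled, whereas all Cell points on the right lie to the left of 0, filled but for that of Grin3b.

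Inhibitors of transcription and translation during digestion changed no receptor gene past the thresholds. In Cell-Input with inhibitors against Cell-Input, from the same 4 mice, edgeR called 0 of 38 genes, where 0.311% of all genes were called, and 1 receptor gene had an unadjusted p under 0.05. DESeq2 also called 0. The log2 fold changes ran from -0.38 to 0.41, and the median half-width of their unadjusted 95% intervals was 0.50. Changes of 2-fold or less could not be called whatever their precision, so the calls do not address smaller effects. In Cell-TRAP with inhibitors against Cell-TRAP, edgeR also called 0 (0.638% of all genes), with 3 at an unadjusted p under 0.05. The median half-width of the 95% intervals was wider there, at 0.89. The gene furthest from 0 was Grm7, at 0.527, 0.742, 0.784 and 0.832 CPM in Cell-TRAP and 0, 0.0886, 0.173 and 0.362 CPM with inhibitors (log2 fold change -2.10 ± 0.60 (SE), adjusted p = 0.115). DESeq2 called Grm7 alone (adjusted p = 0.0388), as did edgeR with the mouse as a block (adjusted p = 0.0709). Its groups did not overlap, at 35 and 7 counts in all. Against Tissue, the suspensions with inhibitors gave 29 lower and 2 higher genes in Input (45.6% of all genes called, 20.2% lower) and 36 lower in TRAP (52.8%, 31.2% lower). Only 23 of 38 genes had more than 5 counts in every library of Cell-TRAP with inhibitors. The others passed the filter through other groups and could hardly fail to be lower, so the TRAP count describes the range of the fall. The genes that rose were Grm3 (1.88 ± 0.15) and Gabrg1 (1.32 ± 0.25). Grin1 (-4.56 ± 0.22), Gria3 (-4.30 ± 0.28), and Gabrb2 (-4.08 ± 0.30) fell furthest in Input, and Grin2b (-7.47 ± 0.37), Grm7 (-7.33 ± 0.48), and Gabrb2 (-7.31 ± 0.47) in TRAP. With inhibitors, TRAP against Input lowered 37 genes (45.6% of all genes called, 35.8% lower), Grm7 (-5.32 ± 0.42) and Grik1 (-4.40 ± 0.46) the furthest, beside Gabrg3, which had 2 counts in TRAP and was 16.5-fold lower (95% counting interval 4.20 to 142) by pooled counts. The fitted folds of Grm7 and Grik1 rest on 0 to 4 counts in each TRAP library with inhibitors.

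In the Input of the Dounce suspension, called receptor genes went in both directions from tissue, each at a share below that of all genes. The paper reports the lowest RNA yield and RNA integrity for Dounce-Input. It also reports more 3' bias in coverage for Dounce and Tissue than for Cell, in Input and in TRAP. A whole brain was used for each Dounce sample and a single hemisphere elsewhere. The part of these differences in the Dounce results was not tested. In Dounce-Input against Tissue-Input 7 of 38 genes rose and 4 fell, where 50.1% of all genes were called (28.7% higher, 21.4% lower). The median log2 fold change of the receptor genes was 0.20 beside 0.10 for all genes. Summed over the 38 genes, Dounce-Input held 6305 ± 211 CPM, Tissue-Input 5027 ± 156, and Cell-Input 1543 ± 182 (SD, n = 4). The largest rise was that of Grik2, a kainate subunit, from 29.5, 31.1, 31.7 and 33.5 CPM in Tissue-Input to 233, 251, 251 and 300.5 CPM in Dounce-Input (log2 fold change 3.25 ± 0.13 (SE), adjusted p = 1.18e-13). Gabra6 rose from 35.3, 40.9, 53 and 56.9 to 158, 192, 205 and 252 CPM (log2 fold change 2.32 ± 0.28 (SE), adjusted p = 3.59e-07). For neither gene did the groups overlap, and also among the genes that rose were 3 of the 4 AMPA subunits, Gria2 (1.92 ± 0.16), Gria3 (1.71 ± 0.24), and Gria4 (1.82 ± 0.21), and the NMDA subunit Grin2c (1.83 ± 0.17). Granule cell markers, a list of 5 genes that holds Gabra6 itself, were at 421 to 651 CPM in Tissue-Input, 843 to 1335 in Dounce-Input, and 97.8 to 181 in Cell-Input, and pan-neuronal markers at 2837 to 3136 CPM in Dounce-Input. Their part in these values was not tested.

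Both GABA-B subunits were among the 4 genes that fell. Gabbr2 was at 112, 152, 167 and 169 CPM in Tissue-Input and 7.65, 16.0, 23.0 and 27.6 CPM in Dounce-Input (log2 fold change -2.77 ± 0.30 (SE), adjusted p = 6.97e-08), and Gabbr1 at 915, 916, 941 and 951 and 307, 328, 380.4 and 393 CPM (log2 fold change -1.19 ± 0.12 (SE), adjusted p = 1.69e-08), in both cases without overlap. The NMDA subunits Grin2a (-1.87 ± 0.63) and Grin2d (-1.5 ± 0.31) were the others. Against Cell-Input, 28 genes were higher in Dounce-Input and 2 lower, where 56.8% of all genes were called (28.8% higher). Among those higher by the most were Gria3 (5.84 ± 0.30) and Gabra6 (5.26 ± 0.33), and Grm3 (-1.38 ± 0.15) and Gabrg1 (-1.36 ± 0.25), the genes that had risen in Cell-Input, were the 2 lower. The mice of the Dounce group were neither those of Tissue nor those of Cell. The preparation, the set of mice, and the RNA quality cannot be told apart here.

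In pulled-down RNA the receptor genes summed to 4476 ± 522 CPM in Tissue-TRAP, 2144 ± 515 in Dounce-TRAP, and 269 ± 70.9 in Cell-TRAP (SD, n = 4). In Dounce-TRAP against Tissue-TRAP 24 of 38 genes fell and 4 rose (50.3% of all genes called, 27.1% lower), with a median of -1.31 beside -0.06. Grik2 rose from 16.5, 17.6, 18.0 and 26.4 to 62.7, 76.8, 80.8 and 100.2 CPM (log2 fold change 2.09 ± 0.28 (SE), adjusted p = 3.11e-06), and the others that rose were Gabra6 (1.22 ± 0.32), Grik1 (1.15 ± 0.29), and Grin2c (1.05 ± 0.30). These 3 calls were not stable, since Gabra6 lost its call without mouse 181 (0.85), Grik1 without mouse 179 (0.99), and Grin2c without mouse 181, 182, or 947 (0.85 to 0.99), with DESeq2 size factors (0.99), under DESeq2's Wald test (1.0), and without the filter (0.97). Gabbr2 fell furthest, from 109.7, 149.8, 175 and 219 to 9.31, 10.9, 12.6 and 15.8 CPM (log2 fold change -3.67 ± 0.23 (SE), adjusted p = 1.42e-10), followed by Gabrb1 (-3.05 ± 0.37) and the alpha subunit Gabra3 (-2.51 ± 0.28). Against Cell-TRAP 33 genes were higher and none lower (28.7% of all genes called, 20.7% higher), Gria3 (7.01 ± 0.36), Gabra6 (6.77 ± 0.46), and Grin2b (6.01 ± 0.39) by the most. In Cell-TRAP, 29 of 38 genes had more than 5 counts in every library, and the others passed the filter through other groups. Gabra6 and Grin2b, with 2 to 11 and 3 to 7 counts in each Cell-TRAP library, were among these and could hardly fail to be higher. Summed pan-neuronal markers were 6465 to 7339 CPM in Tissue-TRAP, 867 to 1501 in Dounce-TRAP, and 79 to 185 in Cell-TRAP, and summed microglial markers 33036 to 39270.3 CPM in Dounce-TRAP and 37024 to 42519 in Cell-TRAP, and their part was not tested. Within the Dounce preparation the pull-down lowered 27 genes and raised none (47.5% of all genes called, 26.7% lower). Grik4 (-2.32 ± 0.27), the group I receptor Grm5 (-2.21 ± 0.31), and Gria4 (-2.17 ± 0.26) fell by the most.

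Other genes of the same synapses were counted beside the receptors. In Cell-Input against Tissue-Input of the sort comparison, of the auxiliary subunits that travel with the receptors 13 of 18 fell and 1 rose, of the scaffold genes 12 of 18 fell and 0 rose, of the genes for transmitter synthesis and vesicular transport 8 of 8 fell and 0 rose, and of the genes for uptake and breakdown 1 of 12 fell and 6 rose, where 17.5% of all genes fell and 28.5% rose. Cacng3 (-4.48 ± 0.40) and Cnih3 (-4.14 ± 0.31), which accompany AMPA receptors, fell furthest among the auxiliary subunits. The one that rose was Kctd12 (3.38 ± 0.13), a partner of GABA-B receptors. Grip2 (-2.78 ± 0.47) and Dlg4 (-2.43 ± 0.15), the latter encoding PSD-95, led the scaffold genes, and the vesicular transporters Slc17a6 (-3.96 ± 0.30) and Slc32a1 (-3.37 ± 0.24) led the transport genes. Among uptake genes Slc1a3 (2.47 ± 0.17) and Slc6a11 (2.23 ± 0.41), known from astrocytes, rose, and the Purkinje cell transporter Slc1a6 (-4.53 ± 0.45) fell. In sorted Input against Cell-Input, of the auxiliary subunits 16 of 18 fell and 1 rose, of the scaffold genes 14 of 18 fell and 0 rose, of the synthesis and transport genes 7 of 8 fell and 0 rose, and of the uptake genes 10 of 12 fell and 0 rose, beside 34.7% and 17.1% of all genes. Kctd12 was again the one that rose (2.31 ± 0.11). In Dounce-Input against Tissue-Input, of the auxiliary subunits 4 of 18 fell and 0 rose, of the scaffold genes 6 of 18 fell and 2 rose, of the synthesis and transport genes 4 of 8 fell and 2 rose, and of the uptake genes 2 of 12 fell and 0 rose, beside 21.4% and 28.7% of all genes, so that most of these shares lay near those of all genes or below. Cnih2 (-2.22 ± 0.23) and Cacng7 (-2.20 ± 0.27) fell furthest among the auxiliary subunits, and Shank1 (-2.40 ± 0.33) and Dlg4 (-2.22 ± 0.21) among the scaffold genes, while Grip1 (1.74 ± 0.18) rose. In Tissue-TRAP against Tissue-Input of the sort comparison, Kctd12 (1.84 ± 0.12) and Shisa6 (1.12 ± 0.26) rose among the auxiliary subunits.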

How the data were processed

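Poly(A) RNA-Seq libraries of 80 samples were analysed. The authors trimmed the reads, aligned them to mm10, removed duplicates, and quantified reads per gene in Strand NGS, and the expected counts they deposited are mostly not whole (33.2% of values whole in the sort table and 20.8% in the preparation table), so they were rounded to whole numbers. The log2 values that the authors deposited, made with DESeq2 size factors and set relative to a baseline, were read only to learn what they hold, and a shorter table of the preparation experiment was not used. The libraries were directional, and the alignment used strand. Listed genes had more than 5 reads in all samples of at least 1 group.

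Samples were grouped by the labels, and the mouse was taken from the sample titles. Counts were tested in R 4.3.3 with edgeR 4.0.16 (TMM, quasi-likelihood, group as the only factor), separately for Input, TRAP, and both together in each experiment, once genes were dropped that had no group whose libraries all held more than 5 counts. Calls needed an FDR (Benjamini-Hochberg, over all genes tested) under 0.1 and a fold change above 2, and in the F tests the largest fold between any pair of sorts had to pass the latter. SEs were obtained by dividing log2 fold changes, without their sign, by the root of the F statistic. Some mice gave cells for several sorts, and the fits treat such libraries as independent. The scripts were tested on simulated data. Replicates were compared by chi-square on their counts, and none agreed within sampling noise (lowest chi-square per degree of freedom 3.47 over 74 pairs of the sort comparison and 3.58 over 48 pairs of the preparation comparison). Same-mouse libraries pair by animal, and the correlation of their deviations from the group means ranged from -0.03 to 0.57.

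Some receptor genes are counted among the 38 but not reported by name here. The receptor genes, gene lists, and tests were chosen with earlier results of these data known. Named in each comparison were up to 3 called genes with the largest change in each direction, all called against the main direction, the most abundant genes in sorted cells, those on the study's marker lists, and those not called, and for other synaptic genes up to 2 per direction. DESeq2 1.42.0, other filters, size factors, smaller fits, a mouse block, and leaving out each mouse were the alternatives. Exon lengths and overlaps came from GENCODE vM21, in which all 38 genes matched. Intervals on pooled counts are exact at the 95% level.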

Additional observations from a re-analysis of the deposited data

Results flagged for a closer look

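Tests for a stray library covered 11 items (chosen receptor genes and the summed receptor CPM) and left out autoMACS to Tyto, which had 3 libraries. Among 163 such tests of a group's highest or lowest library against the rest, 12 values stood apart by Dixon's criterion, about 1 in 20 being what chance gives. In sorted Input they were Grm3 in a Tyto library (5.72 CPM) and Grin3b in autoMACS-Input replicate 3 (17.1 CPM). In sorted TRAP they were Gabbr1 in a Tyto library (47.9 CPM) and in an autoMACS library (54.6 CPM). The summed receptor CPM was flagged there in a FACSAria library (55.8) and in that same autoMACS library (69.3), whose sum includes its Gabbr1. In the preparation comparison they were Grin3b in Tissue-Input (7.07 CPM) and at the low end of Dounce-Input (4.38 CPM), Grm3 in Dounce-Input (40.3 CPM), Gria1 in Cell-TRAP (55.1 CPM) and at the low end of Dounce-TRAP (95.9 CPM), and Gabrb1 in Cell-TRAP with inhibitors (6.4 CPM).

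The effect of the pull-down differed between Cell and Tissue by the interaction term of edgeR in 34 receptor genes, with Gabrb1 (-3.93 on the log2 scale), Grik1 (-3.41), and Grin2b (-3.08) the furthest, and for each of these 3 TRAP was lower relative to Input in Cell than in Tissue.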

How the results depend on the processing

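The number of receptor genes called stayed within 1.5 times that reported under every alternative run, apart from the following. For Cell-TRAP with inhibitors against Cell-TRAP, DESeq2's Wald test, the fit of only those groups, and the replicate block each called 1 gene, Grm7, in place of 0, and leaving out a mouse gave 0 to 1. For the F test across sorted Input groups, DESeq2's likelihood-ratio test called 15 and the fit of only those groups 3 of 10 tested, in place of 5, with 5 to 7 when a mouse was left out. Across sorted TRAP groups these were 10 and 1 of 5 tested, in place of 4, with 4 to 5. For sorted TRAP against sorted Input, the fit of only those groups and the replicate block each called 5 in place of 24, since 10 receptor genes passed the filter there, and leaving out a mouse gave 21 to 24. DESeq2 called 1 gene in place of 2 for Tissue-TRAP against Tissue-Input of the sort comparison, and in the preparation comparison leaving out a mouse gave 2 to 3. For Dounce-TRAP against Dounce-Input, leaving out a mouse gave 24 to 35, in place of 27. DESeq2's Wald test was not run for the F tests, which compare several groups, and the likelihood-ratio test, the replicate block of the sorted groups, and the Grin3b value without autoMACS-Input replicate 3 were added after seeing the data. The cause of these differences was not tested other than where fewer genes passed the filter.

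Of single genes, Grin2a in sorted TRAP against Cell-TRAP reversed without mouse 946 (0.37 on the log2 scale, adjusted p = 1.00 by edgeR, where leaving out any 1 other mouse gave -3.86 to -3.35), with 1 count in all sorted TRAP libraries. With only the compared groups in the fit, Grm2 was no longer called for TRAP against Input in Cell and in Cell with inhibitors of the preparation comparison, either without the replicate block (-0.67 and -0.85) or with it (-0.73 and -0.89). Under the block Gabra6 was called for Cell-Input against Tissue-Input of the sort comparison, Gabra5 for the Dounce pull-down, and genes that then failed the filter were not tested. With DESeq2 size factors the median of all genes shifted by -0.41 (Cell-TRAP against Cell-Input), -0.33 (Cell-TRAP against Tissue-TRAP), -0.32 (interaction), -0.21 (sorted Input against Cell-Input), -0.23 (Dounce-TRAP against Dounce-Input), 0.13, and 0.12 (TRAP against Input of Cell and Cell with inhibitors, preparation comparison), and the counts of receptor genes called moved by 3 or fewer. Few counts limit the sorted groups, where most receptor genes had 5 or fewer counts in some libraries.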
